A study of Mus musculus with 2 samples.

Results

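Expression of 10 genes that the transcription factor p53 is known to induce was followed in primary hepatocytes that lacked *Drp1*, the GTPase that divides mitochondria. The genes were *Cdkn1a*, *Gadd45a*, *Mdm2*, *Ccng1*, *Bax*, *Fas*, *Aen*, *Phlda3*, *Trp53inp1* and *Sesn2*. A probe was taken for a member if its gene name in the array files was 1 of these 10 symbols, which gave 22 of the 56605 probes and 10 of the 37074 gene names on the array. Control cells came from *Drp1*flox/flox mice, littermates that carry the loxP-flanked alleles without Cre and that the sample labels call wild type. *Drp1*LiKO cells came from *Alb-Cre* Tg/+ *Drp1*flox/flox mice, in which the albumin promoter drives Cre, so that deletion is directed to hepatocytes. Both groups were on a C57BL/6 background, and both share the floxed alleles. Livers were digested with collagenase, the pelleted cells were plated on collagen, and RNA was taken 24 h after seeding with no further treatment. The methods give an age and male sex for purchased C57BL/6J mice, but the age and sex of the bred *Drp1* mice and the number of animals behind each array are not given in the sources used here.

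RNA of each genotype was labeled with Cy3 and read on 1 array, so no test was possible, no p-value is given, and every difference is one between 2 arrays. Signals are processed fluorescence intensities in arbitrary units, and the number of arrays limits their precision. A log2 ratio is the *Drp1*LiKO minus the control log2 signal, each taken relative to the 75th percentile of its own array, 313 for control and 356 for *Drp1*LiKO cells. Because of this scaling, equal signals on both arrays give a log2 ratio of -0.18. Each member probe was printed as 1 spot, and the noise given with a ratio is an SD estimated from probes of similar signal that were printed 10 times. It covers the spot and not the animal, the culture or the labeling. The study selected genes by their Z score. Here a gene was called at a Z score of 2 or more or of -2 or less among the 30275 detected probes, which lay at log2 ratios of 1.30 and -1.31.

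p53 is kept scarce in unstressed cells by the ubiquitin ligase Mdm2 and accumulates after DNA damage and other stress, when it binds near its target genes and induces their transcription. Its targets arrest the cell cycle, help repair DNA, promote cell death, adjust metabolism and, through Mdm2 itself, switch the response off again. In liver, p53 activity restrains the entry of hepatocytes into division and takes part in the response to injury. A p53 site is made of decamers, 10-base units that occur in pairs and are recognized by the letters of the p53 consensus.

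Decamers were looked for in RefSeq windows (GRCm38.p6) that run from 250 bases before to 50 bases after each start site, on both strands at once because the consensus is its own reverse complement. The table held 11 windows of 9 members, and *Trp53inp1* had none. A match stood in 7 windows of 6 members, *Cdkn1a*, *Gadd45a*, *Mdm2*, *Ccng1*, *Bax* and *Aen*, while 8.36% of all 32851 windows held 1. The *Aen* windows overlap and hold the same decamer, so that 1 site counts in both. No match stood in the windows of *Fas*, *Phlda3* or *Sesn2*, which says only that these letters are not in these bases. Decamers paired with at most 13 bases between them stood in 24 of all windows (0.0731%) and in 1 window of a member, that of the upstream *Cdkn1a* start. The 250 bases before that start (chr17:29090729-29090978, plus strand) are shown because they carry this pair, and capitals mark a decamer, and then a decamer directly followed by another that is 1 base off the consensus:
*Cdkn1a*, upstream start: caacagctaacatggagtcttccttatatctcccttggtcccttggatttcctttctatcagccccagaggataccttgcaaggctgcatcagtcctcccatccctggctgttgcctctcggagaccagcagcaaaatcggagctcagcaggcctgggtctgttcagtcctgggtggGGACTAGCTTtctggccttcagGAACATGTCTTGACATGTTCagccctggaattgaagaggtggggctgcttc

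The other matches upstream of a start were single decamers. Those of the members with the highest ratio, with the lowest ratio among members that have a match, of the p53 ligase and of the pore-forming *Bax* are given with 15 bases on each side and the decamer in capitals, each read on the minus strand, for *Gadd45a* at chr6:67037423-67037462, for *Ccng1* at chr11:40755447-40755486, for *Mdm2* at chr10:117710920-117710959 and for *Bax* at chr7:45467075-45467114:
*Gadd45a*: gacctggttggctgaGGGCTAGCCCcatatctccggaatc
*Ccng1*: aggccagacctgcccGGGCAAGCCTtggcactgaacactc
*Mdm2*: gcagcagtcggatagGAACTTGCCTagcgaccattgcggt
*Bax*: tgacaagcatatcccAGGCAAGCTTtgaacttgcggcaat

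**Figure D1:**
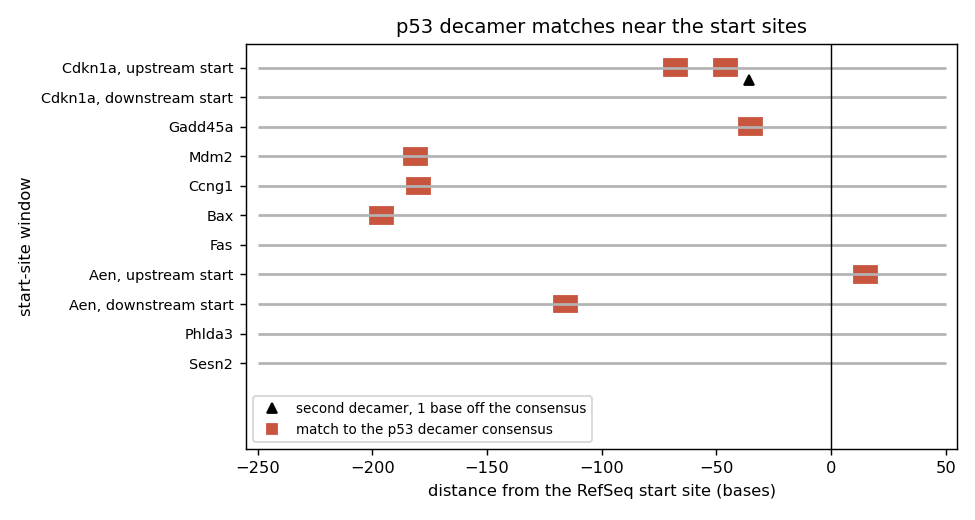
Positions of matches to the p53 decamer consensus in 11 start-site windows of 9 members, with the distance from the RefSeq start in bases on the horizontal axis and 1 window per row. The upstream *Cdkn1a* window holds 2 matches, at -73 and -51, and 4 windows hold none.

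All 10 genes were measured on both arrays, and none was called. At the brightest probe of each gene, 8 had a log2 ratio below 0 and 2 had one above it, with a median log2 ratio of -0.19 beside -0.05 over all 20165 detected genes. Of all detected genes, 55.5% lay below 0, 3.5% were called higher and 2.81% were called lower, 6.3% in all. Past 1.5-fold, *Gadd45a* was higher and *Fas* was lower, while 10.3% of all detected genes were past 1.5-fold higher and 10.3% past 1.5-fold lower. All 22 probes were well above background on at least 1 array, and 21 were on both. Of these 22 probes none was called, while among all detected probes 2.94% were called higher and 2.49% lower, 5.43% in all. Past 1.5-fold, 1 of the 22 probes was higher and 4 were lower, beside 10.4% and 9.71% of all detected probes.

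**Figure D2:**
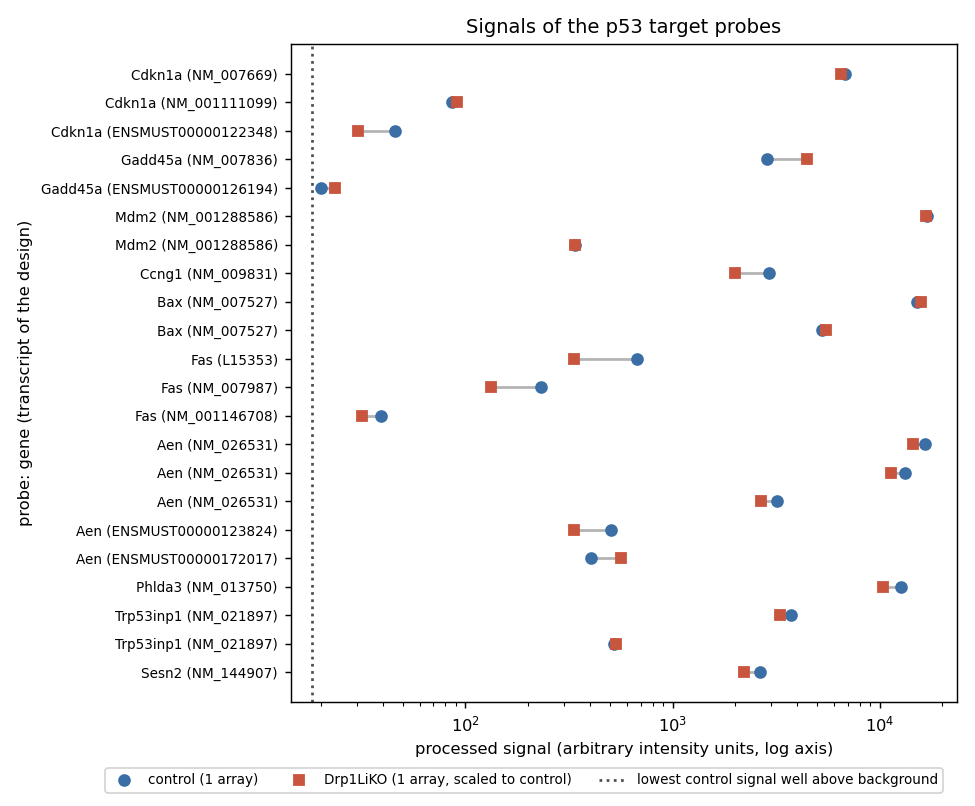
Processed signal of the 22 probes on a log axis in arbitrary intensity units, with 1 point for the control array and 1 for the *Drp1*LiKO array scaled to the control by the 75th percentile. Points of *Mdm2*, *Bax* and the brightest *Cdkn1a* probe lie almost on each other, and those of *Fas*, *Ccng1* and *Gadd45a* lie apart.

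Markers of hepatocytes and of other liver cells were both detected, and markers of both kinds differed between the arrays. All 11 hepatocyte markers were detected, with *Alb* (albumin) at 219613 on the control and 266703 on the *Drp1*LiKO array and a summed scaled signal of 273291 and 287550, most of it *Alb*. Their median log2 ratio was 0.30, and 4 were past 1.5-fold higher and 1 lower, from *Cyp2e1* at -0.78 to *Cyp3a11*, which was called, at 2.03. Of 14 macrophage markers, 13 were detected and all were higher in *Drp1*LiKO cells, with a median log2 ratio of 2.52 and a summed scaled signal of 4742 and 18371, while *Timd4* was not detected. All 9 endothelial markers and 6 of 7 detected stellate markers were higher as well, with medians of 1.47 and 1.04. The stellate marker *Lrat* was not detected. Endothelial sums were 4247 and 7815, mostly *Egfl7* (log2 ratio 0.70), and stellate sums were 21930 and 26346, mostly *Acta2* (0.02). Of the macrophage, endothelial and stellate markers 3 each were well above background on the *Drp1*LiKO array only. So were the hepatocyte marker *Pck1*, the cholangiocyte marker *Krt7*, the B cell marker *Ms4a1* and the neutrophil marker *Ly6g*. These passed the filter through that array alone, which favors a higher ratio, and their ratios are bounds. Of the cholangiocyte markers 4 of 5 were detected, without *Epcam*, with 2 higher and 2 lower and a median log2 ratio of 0.09. *Krt7*, with such a bound, is 1 of the 2 higher and enters this median. Their sums were 29386 and 21934, mostly *Spp1* (-0.46). Of T and NK cell, B cell and neutrophil markers 2 of 7, 1 of 3 and 1 of 4 were detected. The brightest probe of the targeted gene, listed as *Dnm1l*, had 2602 and 1217, a log2 ratio of -1.28. Its Z score was -1.95, so the targeted gene itself was not called. The other *Dnm1l* probe, dim on both arrays, had 22.8 and 20.9, a log2 ratio of -0.31. In such mixed RNA, fewer cells of a type and less RNA per cell cannot be told apart, and the part of these other cells in the ratios of the p53 targets was not tested.

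Among the genes of cell cycle arrest, *Cdkn1a*, which encodes the CDK inhibitor p21 and is the best known p53 target, hardly differed. Its brightest probe (NM_007669, chromosome 17 of mm9, from 29237377 to 29237436) read 6796 on the control and 7374 on the *Drp1*LiKO array. The log2 ratio was -0.06 with a noise of 0.064, so the difference was about the size of the noise. The transcript variant NM_001111099 has a probe of its own, the farthest upstream of the 3, on chromosome 17 from 29227986 to 29228045. This probe had 86.4 and 104, a log2 ratio of 0.08 with a noise of 0.21. A transcript named ENSMUST00000122348, read from 29235299 to 29235358, had 45.7 and 34.5, a log2 ratio of -0.59 with the same noise of 0.21. The probes of *Cdkn1a* thus lay on both sides of 0, and the low one was dim on both arrays. In the RefSeq table the starts of *Cdkn1a* lie 2790 bases apart, and since its windows name no transcript, no probe was assigned to the start with the paired decamers.

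*Gadd45a*, a small stress protein that binds p21 and PCNA and activates p38 signaling, was the highest of the 10 genes. Its probe for NM_007836, on chromosome 6 of mm9 from 66985376 to 66985435, gave 2844 on the control and 5042 on the *Drp1*LiKO array. The log2 ratio was 0.64 with a noise of 0.069, which is 1.56-fold higher, and the Z score of 1.00 was below the threshold. Of all detected genes, 90.8% had a lower ratio. The second *Gadd45a* probe, for ENSMUST00000126194 (66986425 to 66986484), had 20.05 on the control array, not well above background, and 26.6 on the other. Its log2 ratio of 0.23, with a noise of 0.21, is that of the signals as read, since 20.05 was above the level to which dim signals were raised. With such a control signal the ratio is uncertain. All 60 bases of that probe also stand, on the opposite strand, in the start-site window of E230016M11Rik, whose own probe was not well above background on either array.

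The genes that act back on p53 had unlike ratios. *Mdm2*, the ligase that marks p53 for degradation, had 16941 on the control and 18963 on the *Drp1*LiKO array at its brightest probe (NM_001288586, chromosome 10 from 117126010 to 117126069). Its log2 ratio was -0.02 with a noise of 0.060. A second probe, which the files place across 2879 bases of the gene from 117139375 to 117142253, had 339 and 384, a log2 ratio of -0.00. *Ccng1* encodes cyclin G1, which brings the phosphatase PP2A to Mdm2. Its single probe (NM_009831, chromosome 11 from 40562427 to 40562486) had 2925 and 2270, a log2 ratio of -0.55 with a noise of 0.079. *Ccng1* was therefore 1.46-fold lower, a difference larger than the spot noise, with a Z score of -0.83. Only 11.2% of all detected genes had a lower ratio.

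Of the genes of cell death, *Bax* encodes the protein that opens the outer mitochondrial membrane. Its brightest probe (NM_007527, chromosome 7 from 52717122 to 52717181) had 15131 on the control and 17883 on the *Drp1*LiKO array, a log2 ratio of 0.06 with a noise of 0.060. The second probe, which spans 156 bases of the genome from 52721469 to 52721624, had 5252 and 6242, a log2 ratio of 0.07. Both probes gave nearly the same value on the arrays. The table of normalized intensities that the authors deposited held other values, 15893 and 5357 for the first probe, a log2 ratio of -1.57, and 5482 and 1576 for the second, a log2 ratio of -1.80. In that table *Bax* would be called lower. The control column of that table kept the order of the control array, with a rank correlation of 1.00 across probes, while the *Drp1*LiKO column had 0.958 with its array, and probes are not independent replicates. Among the 26443 probes well above background on both arrays, 9.59% differed by over 0.5 in log2 ratio between table and arrays, and so did 4 of the 22 member probes, both of *Bax*, 1 of *Aen* and 1 of *Fas*. Which of these sources holds the *Drp1*LiKO sample as it was hybridized cannot be told from the files, and the direction of *Bax*, and those of *Phlda3*, *Sesn2* and *Mdm2*, rest on that choice.

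*Fas*, the death receptor that binds Fas ligand, was the lowest of the 10 genes, and its probes read different sequences. The brightest one (L15353), with 675 on the control and 379 on the *Drp1*LiKO array, had a log2 ratio of -1.02 with a noise of 0.14 and a Z score of -1.54. The files place it on chromosome 4 of mm9 from 40555124 to 40555183, outside the *Fas* locus on chromosome 19, and describe its transcript as a *Fas* mRNA that contains the long terminal repeat of an ETn retrotransposon. All of its 60 bases stand in the RefSeq start-site window of LOC108167564 on chromosome 8, and the 53 in capitals also in that of A630077J23Rik on chromosome 4, so a signal here need not come from *Fas*:
*Fas* probe L15353: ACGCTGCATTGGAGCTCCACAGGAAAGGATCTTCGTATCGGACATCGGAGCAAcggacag

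The other *Fas* probes lie on chromosome 19 and leave the direction as it was. The probe for NM_007987 (34402164 to 34402223) had 230 on the control and 150 on the *Drp1*LiKO array, a log2 ratio of -0.80 with a noise of 0.17, or 1.74-fold lower. The probe for NM_001146708 (34383733 to 34383792) had 39.3 and 35.9, a log2 ratio of -0.31 with a noise of 0.21. Without the probe of chromosome 4, *Fas* was still the lowest of the 10 genes and still past 1.5-fold lower, but it was then closer to *Ccng1*.

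*Aen*, an apoptosis-enhancing nuclease, has 5 probes on chromosome 7 of mm9. For NM_026531 the brightest probe (86053207 to 86053266) had 16619 on the control and 16389 on the *Drp1*LiKO array, a log2 ratio of -0.20 with a noise of 0.060. A probe that shares 50 bases with it had 13265 and 12915, a log2 ratio of -0.22, and the next, from 86052909 to 86052968, had 3181 and 3034, a log2 ratio of -0.25. These are close, and the overlapping pair is not independent. An EST probe listed as W15861, which shares 53 bases with the brightest *Aen* probe, had a log2 ratio of -0.30. The probes of other *Aen* transcripts, 1 on each side of these, went apart. Downstream, ENSMUST00000123824 (86055764 to 86055823) had 503 and 378, a log2 ratio of -0.59 with a noise of 0.16. Upstream, ENSMUST00000172017 (86044485 to 86044544) had 405 and 643, a log2 ratio of 0.48 with a noise of 0.14, and it shares 51 bases with a start-site window of Gm13269 on chromosome 2.

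*Phlda3*, whose pleckstrin homology domain competes with Akt for membrane lipids, had 12634 on the control and 11759 on the *Drp1*LiKO array (NM_013750, chromosome 1 from 137665642 to 137665701). Its log2 ratio was -0.29 with a noise of 0.060, and 0.19 with the deposited normalized values. *Trp53inp1*, a nuclear stress protein that acts in apoptosis and autophagy, had 3749 and 3745 at its brightest probe (NM_021897, chromosome 4 from 11101174 to 11101233). That is a log2 ratio of -0.18 with a noise of 0.074, nearly all of it from the scaling of the arrays. A second probe of *Trp53inp1* (11092530 to 11092589) had 523 and 605, a log2 ratio of 0.03 with a noise of 0.14. *Sesn2*, a leucine-binding sestrin that restrains mTORC1 and is also induced by ATF4, was the only metabolic gene among the 10. It had 2650 and 2522 (NM_144907, chromosome 4 from 132048858 to 132048917), a log2 ratio of -0.25 with a noise of 0.081, and 0.01 with the deposited normalized values.

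**Figure D3:**
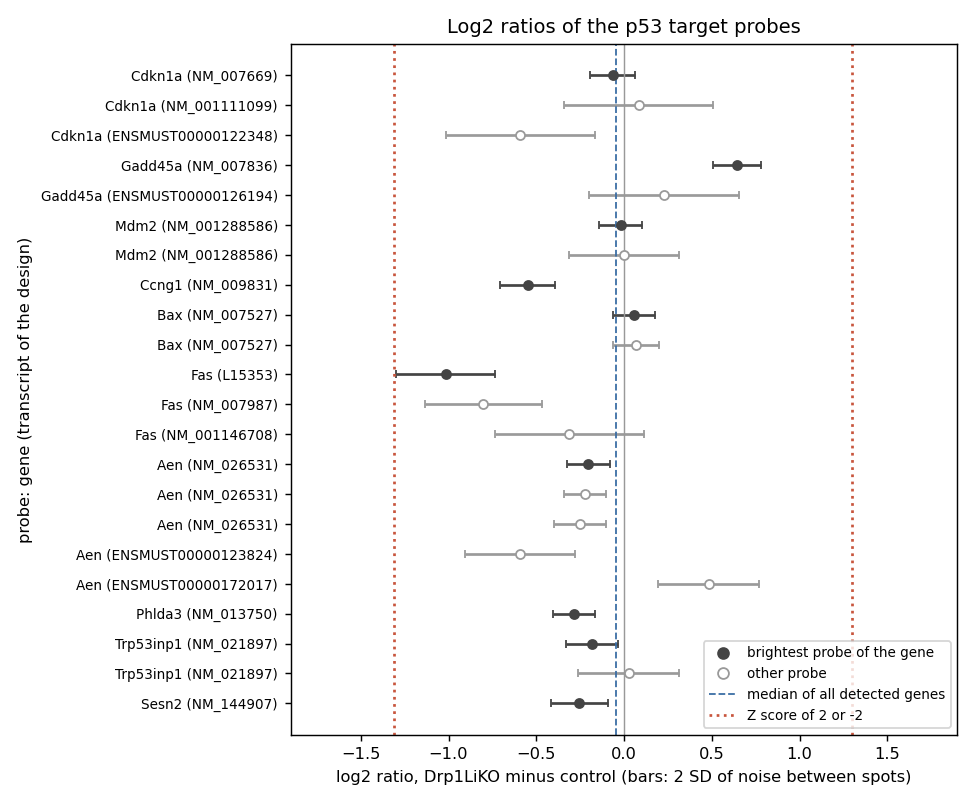
Log2 ratio of the 22 probes, *Drp1*LiKO minus control, with filled points for the brightest probe of each gene and bars of 2 SD of the noise between spots. All points lie between the dotted lines at a Z score of 2 and -2, with *Gadd45a* at 0.64 and *Fas* at -1.02 farthest out.

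In the order of their ratios on the arrays, *Fas*, *Ccng1* and *Gadd45a* stood apart from the other 7 genes, whereas with the deposited normalized values *Bax* was lowest at -1.57 and *Aen*, at -0.56, lay below *Ccng1*, at -0.54. Of the 9 steps between neighbors in this order, 3 were over 2 times the combined spot noise, those from *Fas* to *Ccng1*, from *Ccng1* to *Phlda3* and from *Bax* to *Gadd45a*, and the first of them was 1.38 times that noise with *Fas* at its chromosome 19 probe. The remaining 6 steps, through *Phlda3*, *Sesn2*, *Aen*, *Trp53inp1*, *Cdkn1a*, *Mdm2* and *Bax*, were within it. At the spot level 7 of the 10 ratios were over 2 times their own noise, and *Cdkn1a*, *Mdm2* and *Bax* were not. This noise does not cover the scaling of the arrays. Through that scaling, *Trp53inp1* (3749 and 3745) and *Aen* (16619 and 16389) count among the 7 although their signals hardly differed. The share of all detected genes over 2 times their noise was not computed. Of the 7 genes with more than 1 probe, 3 had probes on both sides of 0, *Cdkn1a*, *Aen* and *Trp53inp1*. Over all 22 probes, 15 were below 0 and 7 above it, and 53.6% of all detected probes were below 0. The median of the 10 genes stayed between -0.19 and -0.15 under 10 other ways of processing. The median of all genes lay between -0.06 and -0.01 under 9 of them and at -0.47 with dim probes kept, where the 10 genes stood 0.27 above it.

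**Figure D4:**
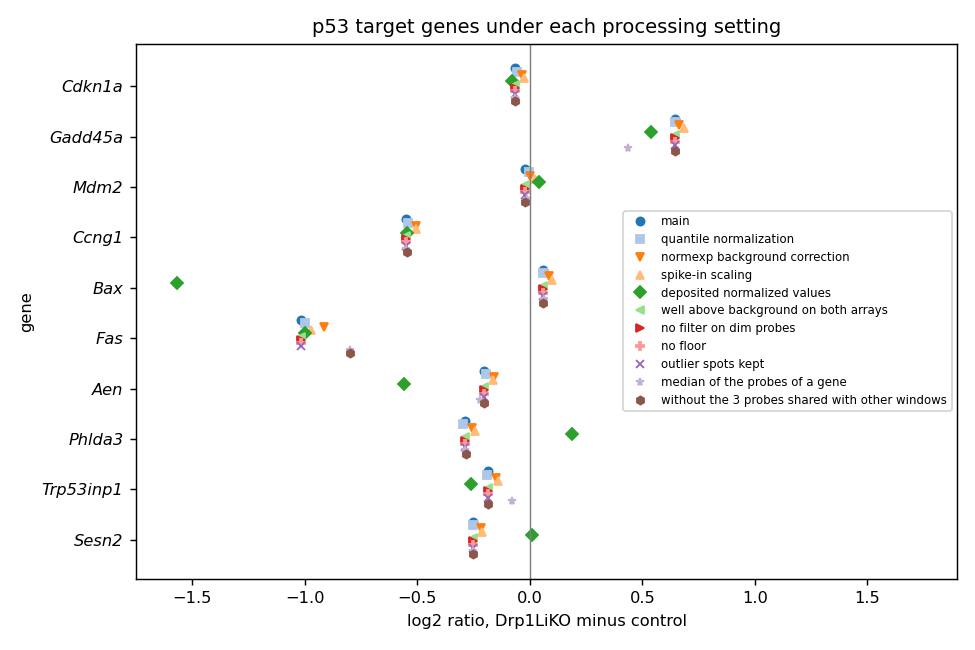
Log2 ratio of the 10 genes, *Drp1*LiKO minus control, in the reported setting and in 10 others, 1 symbol per setting and 1 row per gene. Most symbols of a gene coincide, and *Bax* lies at -1.57 and *Phlda3* at 0.19 with the deposited normalized values only.

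A wider list of 37 other p53 targets was read beside the 10 genes, and 34 of them were detected. Their median log2 ratio was -0.19, with 11 higher and 23 lower, and none was called. Of all detected genes, 55.5% were lower and 6.3% were called. The highest were *Plk3*, a polo-like stress kinase, at 0.70, the stress cytokine *Gdf15* at 0.69, the polo-like kinase *Plk2* at 0.51, the phosphatidate phosphatase *Lpin1* at 0.39 and *Tigar*, a fructose bisphosphatase, at 0.35. *Plk3* had a signal of 1416 on the control and 2611 on the *Drp1*LiKO array, and *Gdf15* had 17239 and 31633. The lowest were *Gtse1*, a microtubule protein of dividing cells that restrains p53, at -1.20, the antiproliferative *Btg2* at -0.69, *Sfn* (14-3-3 sigma) at -0.52, the desmosomal *Perp* at -0.47 and the spindle protein *Psrc1* at -0.41. *Gtse1* had 357 and 176. By role, 9 of 10 genes of cell death were lower, with a median of -0.32, and so were 6 of 8 genes of arrest, with a median of -0.35, while the 8 genes of metabolism were split evenly around 0.00. Through the scaling, genes whose signals hardly differed also count as lower, such as *Tnfrsf10b* (2951 and 2964) and *Rps27l* (78238 and 79041). The repair genes numbered 5, with a median of 0.03, and the feedback genes 3, with a median of -0.16.

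The mRNA of p53 itself and of most of its regulators differed little. *Trp53* had 1418 on the control and 1466 on the *Drp1*LiKO array, a log2 ratio of -0.13 with a noise of 0.10. The p53 inhibitor *Mdm4* was at 0.13, the deubiquitinase *Usp7* at 0.15, the p53 relative *Trp63* at 0.22 and the other relative, *Trp73*, at -0.53. Of the DNA damage kinases, *Atm* was at 0.06, *Atr* at -0.13, *Chek2* at -0.01 and *Chek1*, the checkpoint kinase of dividing cells, at -0.87 (276 and 171). None of these 9 genes was called, beside 6.3% of all detected genes. p53 is regulated mainly as a protein, which arrays do not measure.

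Beside the p53 targets, genes of mitosis stood far lower. All 15 of a mitotic list were below 0, and 13 were called lower, beside 55.5% and 2.81% of all detected genes. Several of them, among them *Bub1*, *Ccnb1*, *Plk1* and *Cdc20*, are in the paper's own list of downregulated mitotic genes from these arrays. That this list was low was thus known in advance, and it is given for description only. The lowest was *Ccna2* (cyclin A2) at -2.32, and the highest, not called, was *Aurkb* (Aurora B kinase) at -1.15. Their median log2 ratio was -2.02, on arrays on which *Cdkn1a* was at -0.06. The other CDK inhibitors of the Cip/Kip and Ink4 families, 6 genes, had a median of -0.02, from *Cdkn2a* at -0.58 to *Cdkn1c* at 0.70, with *Cdkn1b*, the closest in family to *Cdkn1a*, at 0.04. The integrated stress response, which can induce *Sesn2* and *Gadd45a* without p53, had a median of 0.07 over 9 genes, from the hepatokine *Fgf21* at -1.13 to the transcription factor *Atf3* at 0.47.

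**Figure D5:**
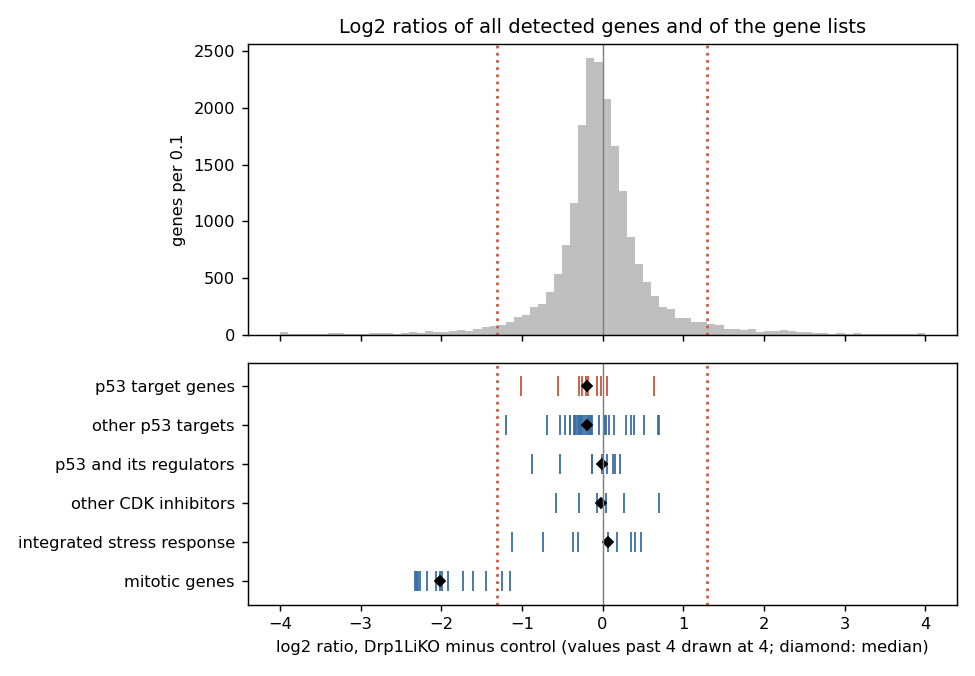
Upper panel, number of detected genes per 0.1 of log2 ratio (*Drp1*LiKO minus control), and lower panel, the genes of 6 lists as ticks with the median as a diamond, with dotted lines at a Z score of 2 and -2. The p53 target lists have medians of -0.19, inside the bulk of all genes, and the mitotic genes lie around -2.02.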

How the data were processed

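The authors hybridized Cy3-labeled cRNA of each genotype to 1 Agilent SurePrint G3 Mouse 8x60K v2 array and deposited the scanner output. Its intensity values are processed signals, in which Feature Extraction (9.5.1.1 per the submitters' processing notes, 10.7.1.1 per the file headers) subtracted the background of each spot. A second table that the authors deposited holds normalized intensity, by a method not given in the sources used here. From the processed signals, control spots and spots marked as outliers were left out, which removed 5 probes, log2 signals of a probe were averaged, and each array was scaled to its 75th percentile. Probes had to be well above background in 1 genotype or both. A signal that was not, and that lay below the lowest that was (18.2 in control, 15.0 in *Drp1*LiKO cells), was raised to that value. This makes its ratio a bound. No spot was saturated. A gene was its brightest probe, and a Z score of 2 was taken over the detected probes.

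The members and lists were chosen with earlier results of these data known. The genes named are the members, *Dnm1l*, the 5 highest and 5 lowest other p53 targets, all p53 regulators and the ends of each compared list, and any other gene was chosen after its values were seen. Lists are described by counts and medians. Spot noise came from 300 probes printed 10 times, taking the 30 nearest in signal. Coordinates of probes are those of the files (mm9), and start-site windows are those of RefSeq (GRCm38.p6), with sharing counted from 20 bases. Results were recomputed with quantile normalization, with normexp (offset 50), with 7 spike-in probes as the scale, from the deposited normalized table, with a stricter and with no filter on dim signals, without the floor, with outlier spots, with the median of a gene's probes and with other Z scores. The steps were tested on simulated data with planted changes larger than any member ratio. That test does not cover changes of the size reported here. Python 3.11.15 with numpy 2.4.6, pandas 2.3.3 and matplotlib 3.10.9 was used, and limma 3.58.1 in R 4.3.3.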

Additional observations from a re-analysis of the deposited data

How the results depend on the processing

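No paired analysis was possible because there was 1 array per genotype, and for the same reason no replicate could be left out. The count of p53 target genes past the Z score threshold went from 0 to 1 with normexp background correction (*Fas*, at its chromosome 4 probe), with a robust Z score (again *Fas*) and with the deposited normalized values (*Bax*). Among the 34 other p53 targets it went from 0 to 1 with normexp, with only probes well above background on both arrays (*Gtse1* in each case) and when Z scores were taken among probes of like signal (*Gdf15*), and to 3 with a robust Z score (*Plk3*, *Gdf15* and *Gtse1*). In every other setting run both counts were 0. The other filters and the missing floor could not alter a member ratio, since each brightest member probe is well above background on both arrays. Of the 66 recomputed member ratios that differed at all from the reported one, 55 stayed within the spot noise, 11 moved, and 5 had the opposite sign, *Mdm2* with spike-in scaling (0.02) and with the deposited values (0.04), and *Bax* (-1.57), *Phlda3* (0.19) and *Sesn2* (0.01) with the deposited values. Keeping outlier spots and spike-in scaling each shifted every member by the same amount, below the smallest spot noise of a member (0.060). Leaving out member probes that share bases with windows of other genes did so for every member but *Fas*. The 55 ratios include these common shifts, so their number is no count of separate checks. The number of members below 0 was 7 with spike-in scaling and 6 with the deposited values, against 8 otherwise. Ranges over all settings were 0.44 to 0.68 for *Gadd45a*, -1.02 to -0.80 for *Fas*, -0.55 to -0.51 for *Ccng1* and -0.08 to -0.02 for *Cdkn1a*. Leaving out the 3 member probes that share bases with windows of other genes was chosen after the data had been seen, and it left *Fas* at -0.80. Why the deposited *Drp1*LiKO values differ was not tested.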

Other observations

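Relatives of the 10 genes were read as well, a list of 16 genes chosen after the data had been examined. Of these, 15 were detected and none was called, beside 6.3% of all detected genes, a share too small to tell from none in such a list. The *Gadd45* family lay on both sides of 0, with *Gadd45g* at a log2 ratio of 0.91 (10465 on the control and 22271 on the *Drp1*LiKO array), *Gadd45a* at 0.64 and *Gadd45b*, which NF-kB is known to induce, at -0.90 (3876 and 2365). So did the cyclin G genes, with *Ccng2*, a known target of FoxO factors, at 0.66 (642 and 1149) and *Ccng1* at -0.55. Of the genes that act directly below *Fas*, the adaptor *Fadd* was at -0.28 (382 and 357) and the initiator protease *Casp8* at -0.49 (1263 and 1022). Part of both values comes from the scaling of the arrays. Of the 15 detected relatives 8 were higher and 7 lower, and 55.5% of all detected genes were lower. Fas ligand (*Fasl*) was not detected. *Bax* had its fellow pore protein *Bak1* at 0.23 and the related *Bok* at 0.14. Of the sestrins, *Sesn1* was at -0.33 and *Sesn3* at -0.01 beside *Sesn2* at -0.25.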
